A study of Homo sapiens with 9 samples.

Results

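Histone lysine methylation is written by lysine methyltransferases and removed by lysine demethylases, and 41 genes for these enzymes were followed here through nuclear and cytoplasmic RNA. The 41 were listed by enzyme family and by the histone residue they act on, other enzymes of the same families such as KDM5C, KDM6A, PHF2 and PHF8 are in a separate list counted at the end, and all 41 were found in the files and passed the filter on low counts. They are 41 of 16181 genes tested and of 56349 genes matched to the annotation. The cells were HEK293, an established human embryonic kidney line, which the study's methods describe as 293 T cells. Control cells received a control siRNA and gave 3 nuclear libraries and 1 cytoplasmic library. RNAi cells received siRNAs against both KIAA1429 (symbol VIRMA, the Virilizer homologue) and WTAP, and gave 3 nuclear and 2 cytoplasmic libraries. The study's methods describe a repeat transfection and a further incubation before harvest. Nothing in the labels says whether replicates came from separate cultures, so p-values measure the spread between these libraries, which may be technical.

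WTAP and KIAA1429 are subunits of the complex that deposits N6-methyladenosine (m6A) on mRNA while it is still in the nucleus, most often at adenosines in a short consensus of which GGACT is a common form. After processing, an mRNA is bound by export factors and leaves through the nuclear pore, so its nuclear/cytoplasmic ratio reflects export together with decay in each compartment. The enzymes followed here work mostly as catalytic subunits of large complexes: the KMT2 and SETD1 proteins in COMPASS-type complexes on H3K4, EZH1 and EZH2 in Polycomb repressive complex 2 on H3K27, SETD2 with elongating RNA polymerase II on H3K36, and the SUV39, SETDB and EHMT enzymes in heterochromatin on H3K9. Several of their mRNAs are long and have unusually long internal exons.

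Both siRNA targets were lower in RNAi libraries. WTAP was at 23.0 to 27.6 CPM (counts scaled to a common library size) in control nuclei and at 12.2 to 15.6 in RNAi nuclei, and at 37.5 in control cytoplasm against 10.8 and 11.9 in RNAi cytoplasm. VIRMA was at 13.2 to 19.8 CPM in control nuclei and 5.56 to 9.18 in RNAi nuclei, and at 17.4 in control cytoplasm against 4.21 and 4.05 in RNAi cytoplasm. Library depth ran from 11627403 to 19036141 estimated counts in the deposited tables, of which 83.1 to 88.3% fell on matched transcripts. Of 6 listed nuclear-retained RNAs 5 passed the filter, and their summed level was 391 to 568 CPM in the 6 nuclear libraries, 123 in control cytoplasm and 78.2 and 88.6 in RNAi cytoplasm. The 7 listed mitochondrially encoded mRNAs, which are made outside the nucleus, summed to 93175 CPM in control cytoplasm, 112342 and 178383 in RNAi cytoplasm and 122542 to 238465 CPM in nuclear libraries, so the nuclear libraries were not free of mitochondrial RNA. Of 6 genes listed for the cell line 5 passed the filter. Endothelial markers reached at most 0.06 TPM (transcript abundance scaled for length and library size) in any library. Among blood markers HBA1 reached 47.4 TPM, while CD14 reached at most 1.23, PTPRC 0.20 and HBB 0. Among fibroblast markers COL1A1 reached 17.7 TPM, while DCN reached at most 1.23, COL1A2 0.73 and LUM 0.34. The part of these markers in any result was not tested. The most unlike replicates were control nuclei 1 and 2, whose log2 CPM correlated over genes at 0.972, against 0.981 to 0.986 for the other replicate pairs (Pearson's r). Control nuclear replicate 2 held the lowest of the 3 control nuclear values for 26 of the 41 genes, against 39.9% of all genes tested, and results that rest on it are given with and without it.

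Levels between genes were compared on the TPM scale, which is per length. In control nuclei the 41 genes had a median of 11.6 TPM, against 5.95 over all genes tested. SETD5, a SET-domain protein grouped here with the H3K36 enzymes, was highest at 111 ± 14.0 TPM (SD, n = 3), followed by the H3K36 dimethyltransferase NSD2 at 57.9 ± 1.11 and the H3K4 methyltransferase SETD1A at 52.3 ± 5.0. The lowest were the H4K20 methyltransferase KMT5B at 1.55 ± 0.60, the H3K9 methyltransferase SETDB2 at 0.92 ± 0.39 and JMJD1C, a member of the H3K9 demethylase family, at 0.50 ± 0.23. These rested on few reads, with 30, 21 and 57 estimated counts of JMJD1C in control nuclei. The neighbours at the bottom did not separate beyond their SDs, whereas the gap between SETD5 and NSD2 exceeded both SDs together. CPM values are shares of a library, and fewer cells, less RNA per cell and a change of other RNAs cannot be told apart from a change of the gene itself.

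The first comparison asked where these mRNAs sit in control cells. Of the 41 genes, 4 were higher in the nucleus than in the cytoplasm and 8 were lower, each past a false discovery rate (FDR) of 0.1 and a log2 fold change beyond 0.5 (edgeR quasi-likelihood test, adjusted over all genes tested). Over all genes tested 28.0% were higher and 22.7% lower. All values of this comparison rest on 1 cytoplasmic library, whose spread was taken from the other groups. KMT2A, the MLL1 methyltransferase of developmental gene promoters, was at 168, 104 and 137 CPM in control nuclei and at 33.2 in control cytoplasm, a log2 difference of 2.04 ± 0.25 (SE). KMT2B, its closest relative, was at 98.2, 86.8 and 93.8 CPM against 27.2, a log2 difference of 1.77 ± 0.14. In both genes every nuclear library lay above the cytoplasmic one. EZH1, the less active of the Polycomb H3K27 methyltransferases, was 2.13-fold higher in nuclei, at 25.2, 22.8 and 28.1 CPM against 11.9, while its paralogue EZH2 did not pass at a log2 difference of -0.23. SETDB1, which trimethylates H3K9 and is recruited by TRIM28, was 1.57-fold higher at 81.7 to 86.5 CPM against 53.7.

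On the cytoplasmic side stood KDM1B, a flavin-dependent H3K4 demethylase, at 7.69, 5.79 and 6.46 CPM in control nuclei and 21.4 in control cytoplasm, a log2 difference of -1.68 ± 0.31. SETD7, an H3K4 monomethyltransferase with many non-histone substrates, was at 46.7 to 55.2 CPM against 108, 2.06-fold lower in nuclei. The other 6 lower genes were SUV39H2, KDM3B, KMT5A, KMT2D, KMT5C and KDM7A, with log2 differences from -0.71 to -0.52. KDM3B and KMT2D no longer passed without any 1 of the 3 RNAi nuclei or without control nuclear replicate 2 or 3, and KDM7A lost its call without control nuclear replicate 2 or 3. The number of lower genes was 5 without control nuclear replicate 2, 13 without replicate 1, 3 with protein-coding transcripts only and 14 both without the filter on low counts and with the replicate block. The median over the 41 genes was -0.29, against 0.04 over all genes.

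**Figure D1:**
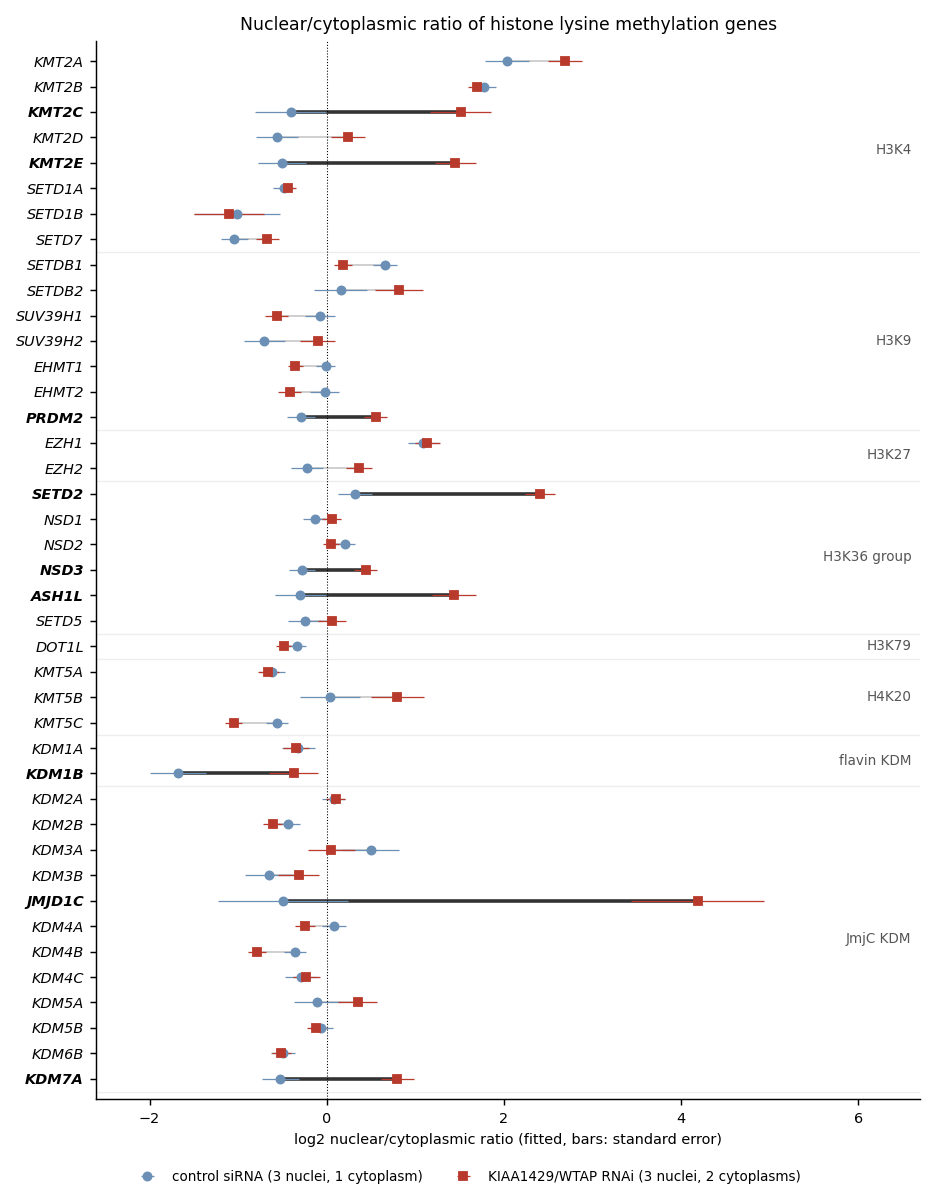
Fitted log2 nuclear/cytoplasmic ratio of each of the 41 genes (horizontal axis, bars are standard errors) in control cells (circles) and after KIAA1429/WTAP RNAi (squares), grouped by the residue or enzyme family named at the right. Bold names with dark lines are the 9 genes whose ratio was higher after RNAi. JMJD1C moved farthest, followed by SETD2, and KMT2A and KMT2B were already above 1 on the log2 scale in control cells.

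The second comparison asked which nuclear/cytoplasmic ratios changed when the methylase subunits were depleted. Of the 41 genes, 9 had a higher ratio after RNAi and 0 a lower one, so 22.0% were higher. Over all 16181 genes tested, 10.4% were higher and 7.87% lower. At an unadjusted p under 0.05, 12 of the 41 were higher and 5 lower, and DESeq2 called 10 higher and 0 lower. The shares of all genes at that p and with DESeq2 are not given here, so these counts have no background. The median of the 41 was 0.06 on the log2 scale, against -0.05 over all genes. Since the ratio uses the single control cytoplasmic library, its error there was borrowed from the other groups. Without control nuclear replicate 2 the counts were 11 higher and 1 lower.

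SETD2 deposits H3K36 trimethylation along transcribed genes and lies at chr3:47057919-47205603 of GRCh37 on the minus strand. Its level was 86.3, 59.2 and 69.1 CPM in control nuclei, 144, 122 and 123 in RNAi nuclei, 57.4 in control cytoplasm and 25.7 and 23.3 in RNAi cytoplasm. RNAi nuclei lay above control nuclei without overlap, and RNAi cytoplasms lay below the control cytoplasm. Its ratio was 4.25-fold higher (log2 2.09 ± 0.24, FDR 0.0016), from a log2 nuclear/cytoplasmic difference of 0.32 in control cells to 2.40 after RNAi. ASH1L, an H3K36 dimethyltransferase of the Trithorax group (chr1:155305059-155532598, minus strand), was at 78.9, 37.6 and 56.8 CPM in control nuclei, 94.2, 86.2 and 95.8 in RNAi nuclei, 71.1 in control cytoplasm and 35.6 and 32.1 in RNAi cytoplasm. The RNAi nuclei were again all above the control nuclei, whose lowest value was replicate 2. Its ratio was 3.34-fold higher (log2 1.74 ± 0.37, FDR 0.017). NSD3, an H3K36 dimethyltransferase also made as a short form without the catalytic SET domain (chr8:38127222-38239790, minus strand), rose less in ratio, by 1.64-fold (log2 0.72 ± 0.20, FDR 0.041). In 1 processing alternative NSD3 kept this direction but not its call. Its nuclear values overlapped, at 33.0 to 41.9 CPM in control and 40.4 to 44.7 in RNAi, while the cytoplasm held 44.8 in control and 30.6 and 31.7 after RNAi. The remaining H3K36 genes NSD1, NSD2 and SETD5 had log2 ratio changes of 0.19, -0.16 and 0.30, which did not pass.

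Among the H3K4 methyltransferases, KMT2E and KMT2C had a higher ratio. KMT2E (MLL5; chr7:104581510-104755466, plus strand) has a SET domain that is not thought to methylate H3K4, and binds H3K4 trimethylation through a PHD finger. It was at 30.8, 16.2 and 25.7 CPM in control nuclei, 51.7, 41.8 and 44.1 in RNAi nuclei, 34.4 in control cytoplasm and 16.8 and 16.8 in RNAi cytoplasm. No RNAi nuclear value reached down to a control one, and the ratio was 3.88-fold higher (log2 1.96 ± 0.35, FDR 0.0087). In 1 processing alternative the KMT2E ratio kept its direction but not its call. The most abundant KMT2E transcript, KMT2E-201, is annotated for nonsense-mediated decay, so the gene sum is not coding mRNA alone. KMT2C (MLL3; chr7:151832007-152133088, minus strand), an H3K4 monomethyltransferase of enhancers, was at 105, 38.4 and 74.2 CPM in control nuclei, 124, 108 and 110 in RNAi nuclei, 96.4 in control cytoplasm and 48.3 and 30.9 in RNAi cytoplasm. The control nuclei spread over a wider range than the RNAi nuclei, with replicate 2 lowest, and the ratio was 3.79-fold higher (log2 1.92 ± 0.51, FDR 0.039). Without RNAi cytoplasmic replicate 2 this call was lost. KMT2C also shares near-identical stretches with copies elsewhere in the genome, so its counts are uncertain. KMT2A, the most nuclear of the group, changed by 0.65 and KMT2D by 0.80 on the log2 scale and neither passed (FDR 0.17 and 0.12). KMT2B changed by -0.07, SETD1A by 0.05, SETD1B by -0.09 ± 0.65 and SETD7 by 0.37.

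The rest of the 9 were 3 demethylases and 1 H3K9 methyltransferase. JMJD1C (chr10:64926981-65225737, minus strand) was at 2.06, 1.43 and 5.04 CPM in control nuclei, 17.4, 7.79 and 13.7 in RNAi nuclei, 3.89 in control cytoplasm and 1.25 and 0.00 in RNAi cytoplasm. All RNAi nuclei exceeded all control nuclei, whereas the RNAi cytoplasms held 16 and 0 estimated counts. Its fitted log2 ratio change of 4.68 ± 1.06 (FDR 0.021) rests on those few counts and ran from 3.92 to 10.9 when single libraries were left out, the highest value coming without RNAi cytoplasmic replicate 1, where the remaining RNAi cytoplasm was at 0 and the fitted value is no bound. KDM7A, which removes methyl groups from H3K9 and H3K27 (chr7:139784546-139876783, minus strand), was at 14.3, 12.1 and 12.1 CPM in control nuclei, 14.5, 13.7 and 11.6 in RNAi nuclei, 18.5 in control cytoplasm and 8.80 and 6.34 in RNAi cytoplasm. Its nuclear values overlapped and its cytoplasmic values fell, and the ratio was 2.50-fold higher (log2 1.32 ± 0.28, FDR 0.015). KDM1B (chr6:18155560-18224084, plus strand) was at 5.79 to 7.69 CPM in control nuclei and 4.91 to 10.8 in RNAi nuclei, with 21.4 in control cytoplasm and 11.9 and 9.62 in RNAi cytoplasm. Its 2.47-fold higher ratio (log2 1.31 ± 0.42, FDR 0.073) lost its call without RNAi cytoplasmic replicate 2, RNAi nuclear replicate 1 or 3, or control nuclear replicate 3. PRDM2 (RIZ; chr1:14026683-14151574, plus strand), an H3K9 methyltransferase with zinc fingers, was at 41.2, 30.7 and 34.5 CPM in control nuclei and 50.8, 48.2 and 49.9 in RNAi nuclei, with 43.6 in control cytoplasm and 34.3 and 33.5 in RNAi cytoplasm. The RNAi nuclei did not overlap the control nuclei, and the ratio was 1.80-fold higher (log2 0.85 ± 0.20, FDR 0.027).

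**Figure D2:**
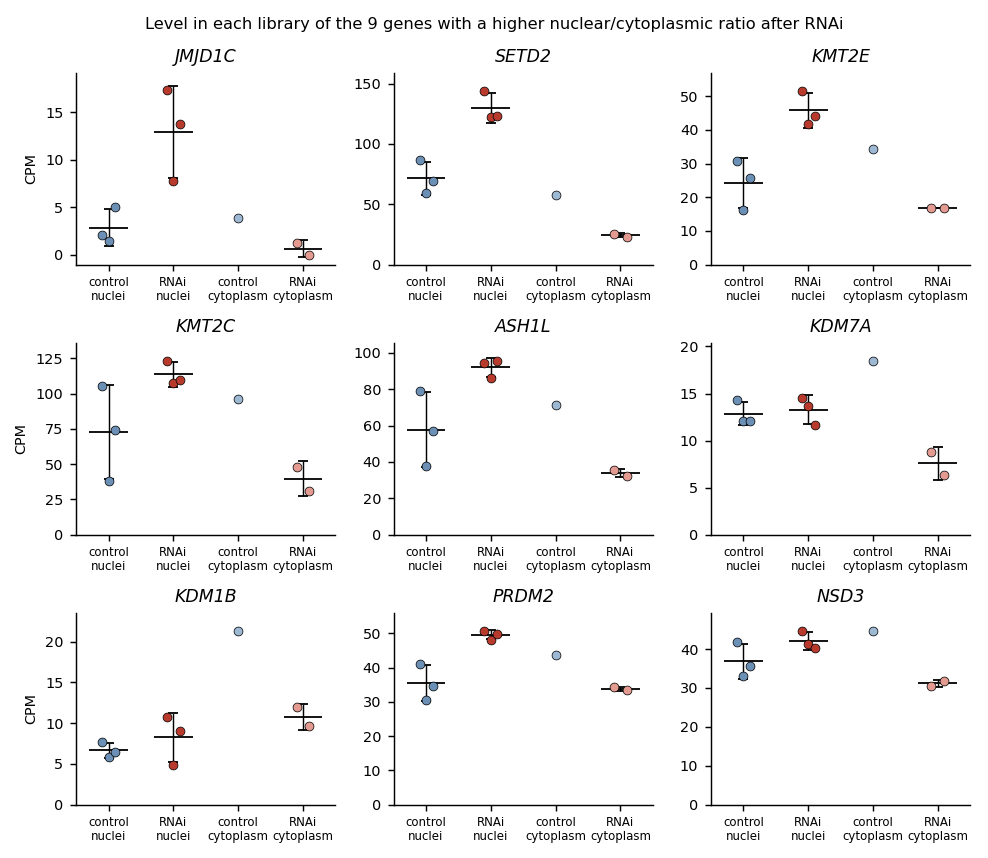
CPM in each of the 9 libraries (points) for the 9 genes with a higher nuclear/cytoplasmic ratio after RNAi, with lines at the mean and bars of 1 SD where a group has more than 1 library. RNAi nuclei lie above all control nuclei for JMJD1C, SETD2, KMT2E, KMT2C, ASH1L and PRDM2 and overlap them for KDM7A, KDM1B and NSD3, while RNAi cytoplasms lie below the control cytoplasm in all 9 panels.

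The remaining families did not pass in ratio. SETDB1 and the H4K20 methyltransferase KMT5C had FDRs of 0.092 and 0.076 but log2 changes of -0.47 and -0.49, short of the size threshold. Log2 changes of the other H3K9 enzymes ran from -0.49 for SUV39H1 to 0.66 for SETDB2. EZH2 had 0.59 and EZH1 0.05. DOT1L, the only known H3K79 methyltransferase, had -0.15. KDM1A, the founding flavin-dependent demethylase, had -0.03. The 10 JmjC demethylases that did not pass lay between -0.44 for KDM3A and 0.46 for KDM5A.

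Comparing nuclei alone has 3 libraries on each side and needs no cytoplasmic library. In this comparison 4 of the 41 genes (9.76%) were higher in RNAi nuclei and 0 lower, against 2.47% and 2.42% of all genes. The 4 were JMJD1C (4.72-fold, log2 2.24 ± 0.51, FDR 0.047), KMT2E (1.90-fold, log2 0.92 ± 0.20, FDR 0.038), SETD2 (1.82-fold, log2 0.86 ± 0.14, FDR 0.017) and SUV39H1 (1.43-fold, log2 0.52 ± 0.12, FDR 0.046). SUV39H1, which trimethylates H3K9 in pericentromeric heterochromatin, was at 40.2, 49.2 and 39.6 CPM in control nuclei and 55.8, 68.5 and 61.0 in RNAi nuclei, with no overlap. Its cytoplasmic level rose as well, and its ratio changed by -0.49 (FDR 0.17). A further 4 genes passed the FDR with log2 changes under the size threshold, which were PRDM2 at 0.485, KMT5C at -0.38, DOT1L at 0.30 and SETD1A at 0.30, and ASH1L had 0.67 at an FDR of 0.10. At an unadjusted p under 0.05, 15 of the 41 were higher and 3 lower, and DESeq2 called 5 higher and 1 lower. For these counts, too, the shares of all genes are not given. The calls moved with single libraries. The number called higher was 1 without RNAi nuclear replicate 2, without RNAi nuclear replicate 3 or without control nuclear replicate 3, 2 without RNAi nuclear replicate 1, 4 without control nuclear replicate 2, and 8 without control nuclear replicate 1. SETD2 lost its call without control nuclear replicate 3, with log2 changes of 0.74 to 1.02 over these fits, and JMJD1C without any 1 of the RNAi nuclei. KMT2E lost it without any 1 of the RNAi nuclei or control nuclear replicate 3, and with protein-coding transcripts only its log2 change was -0.57 (FDR 0.66), opposite in direction. SUV39H1 lost it without RNAi nuclear replicate 2 or 3 or control nuclear replicate 1 or 3.

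Counted by overlap, 18 of 41 genes had all 3 RNAi nuclei above all 3 control nuclei and 2 had all 3 below, where 14.3% of all genes lay above and 13.8% below. The H3K4 group gave 5 of the 18 (KMT2B, KMT2C, KMT2D, KMT2E and SETD1A), and the H3K36 group gave SETD2, NSD1, ASH1L and SETD5. From the H3K9 group came SETDB1, SUV39H1, EHMT1 and PRDM2, and with them DOT1L, KDM2A, KDM2B, KDM6B and JMJD1C. KMT5C and the H3K9 demethylase KDM4B were the 2 below, at 39.7 to 43.2 against 52.1 to 55.8 CPM and at 39.2 to 42.9 against 44.6 to 49.4 CPM. An exact permutation test of 3 against 3 cannot go below p = 0.1 for a single gene. Many of these shifts were small. KMT2B, for instance, was 86.8 to 98.2 CPM in control and 108 to 112 in RNAi nuclei.

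In cytoplasm, 2 RNAi libraries were compared with 1 control library. After RNAi 9 genes were lower (22.0%) and 2 higher (4.88%), against 14.2% and 10.4% of all genes. Of the 9 lower genes 8 were JMJD1C, KMT2C, KDM7A, SETD2, ASH1L, KMT2E, KDM1B and NSD3, all of the genes with a higher ratio except PRDM2, which was at -0.36. This overlap is partly built in, since the ratio contains the same cytoplasmic libraries. Their log2 changes ran from -2.44 for JMJD1C to -0.52 for NSD3. SETD2 was 2.34-fold lower (FDR 0.0038) and KDM7A 2.42-fold lower (FDR 0.0047). EZH2, the main Polycomb H3K27 methyltransferase, was the ninth, at 42.5 CPM in control and 30.1 and 24.9 in RNAi cytoplasm (1.54-fold lower, FDR 0.046). The calls of JMJD1C, KMT2C, ASH1L, KDM1B and EZH2 were lost without RNAi cytoplasmic replicate 2, and that of NSD3 without replicate 1. JMJD1C was also lost without any 1 of the 3 RNAi nuclei, and its fitted value ran from -8.68 to -1.69 when single libraries were left out, since 1 of the 2 RNAi cytoplasms was at 0.

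SUV39H1 and SETDB1 were the 2 genes higher in RNAi cytoplasm, both of them enzymes that trimethylate H3K9. SUV39H1 was at 45.5 CPM in control cytoplasm and 86.4 and 96.2 after RNAi, 2.01-fold higher (FDR 0.0050). SETDB1 was at 53.7 CPM in control and 86.5 and 75.7 after RNAi, 1.51-fold higher (FDR 0.015), a call that was lost without RNAi cytoplasmic replicate 1, when libraries were scaled by size only and with a transcript length offset. EHMT1, DOT1L and KDM2B passed the FDR with log2 changes of 0.46, 0.45 and 0.42, under the size threshold.

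**Figure D3:**
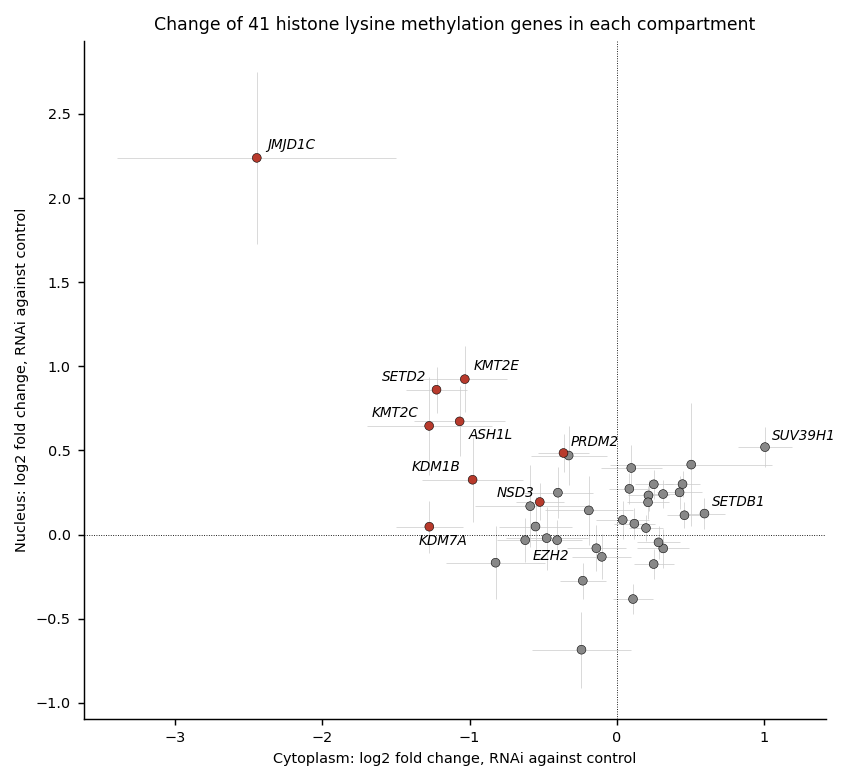
Log2 fold change, RNAi against control, in cytoplasm (horizontal) and in nuclei (vertical) for the 41 genes, with standard errors as grey lines. Red points are the 9 genes with a higher nuclear/cytoplasmic ratio. All 9 lie left of 0 in cytoplasm and at or above 0 in nuclei, from KDM7A at 0.05 to JMJD1C at 2.24, whereas SUV39H1 lies above 0 in both compartments.

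Within RNAi cells, 12 genes were higher in the nucleus and 8 lower, against 32.9% and 24.9% of all genes. The 12 were JMJD1C (4.19), KMT2A (2.69), SETD2 (2.40), KMT2B (1.70), KMT2C (1.51), KMT2E (1.45), ASH1L (1.44), EZH1 (1.14), SETDB2 (0.81), KDM7A (0.80), KMT5B (0.80) and PRDM2 (0.55), all as log2 differences between nucleus and cytoplasm. KMT2A was at 177, 148 and 160 CPM in RNAi nuclei and at 24.4 and 25.9 in RNAi cytoplasm, a 6.44-fold difference with nothing in between. KMT2B was 3.25-fold higher, against 3.42-fold in control cells, and EZH1 2.20-fold, against 2.13-fold. The 8 lower genes were SETD1B (-1.10), KMT5C (-1.05), KDM4B (-0.79), SETD7 (-0.67), KMT5A (-0.66), KDM2B (-0.61), SUV39H1 (-0.56) and KDM6B (-0.51). The fitted value of JMJD1C rests on 16 and 0 estimated counts in RNAi cytoplasm and ran from 3.41 to 10.4 when single libraries were left out. Single libraries decided some of the calls. KDM6B lost its call without RNAi cytoplasmic replicate 1, RNAi nuclear replicate 2 or 3, or control nuclear replicate 1 or 3. SETD1B lost it without RNAi cytoplasmic replicate 1 or RNAi nuclear replicate 2, SUV39H1 without RNAi cytoplasmic replicate 2 or RNAi nuclear replicate 1, KMT5B without either RNAi cytoplasm and SETDB2 without RNAi cytoplasmic replicate 1. When libraries were scaled by size only, the median over all genes in this comparison moved from 0.035 to 0.305, the calls over all genes from 5316 higher and 4034 lower to 6456 and 2090, and 3 of the 41 were lower. For the ratio the same scaling moved that median from -0.05 to 0.23 and the calls over all genes from 1680 higher and 1273 lower to 2236 and 164, and for cytoplasm it moved the median from 0.01 to -0.24 and the calls from 1678 higher and 2305 lower to 431 and 3200. In nuclei the calls over all genes went from 400 higher and 392 lower to 332 and 158. The 41 then counted 11 higher and 0 lower in ratio, and 1 higher and 14 lower in cytoplasm.

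Some of these genes have very long internal exons. Exon length was examined after the expression values were known and is given as a description. The longest internal exon (neither first nor last) over each gene's protein-coding transcripts had a median of 1884 nucleotides in the 9 genes with a higher ratio, 560.5 in the other 32 and 229 over 12575 protein-coding genes tested. Of the 41 genes 10 had one above 1600 nucleotides, and 5 of those 10 were among the 9: ASH1L (4564), PRDM2 (4414), SETD2 (4367), JMJD1C (2207) and KMT2C (1884). KMT2A (4249), KMT2D (2790), NSD1 (2560), KDM6B (2183) and KMT2B (2021) also had such exons and were not called. Over all protein-coding genes the share with a higher ratio was 9.40% with a longest internal exon of up to 200 nucleotides, 11.7% from 201 to 400, 12.5% from 401 to 800, 16.4% from 801 to 1600, 23.5% from 1601 to 3000 and 32.1% above 3000. KDM7A (274) and KDM1B (211) had short internal exons and a higher ratio.

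The change in nuclei followed this length more closely than the ratio did. Across the 41 genes, Spearman's rho between longest internal exon and the nuclear log2 change was 0.67, and across all protein-coding genes 0.19. For the ratio rho was 0.28 across the 41 and for cytoplasm -0.03. Genes are not independent replicates and all points share the same libraries. The length of the most abundant transcript gave 0.20 for the nuclear change. For some genes that transcript was short, such as the retained-intron SETD2-206 (794 nucleotides) and KMT2C-203 (deposited length 710). The coding SETD2-202 has 8142 nucleotides and KMT2C-202 has 11183. The 0.20 therefore does not measure the length of the full mRNA, whose relation to the change was not tested. Control nuclei differed among themselves along the axis of exon length. The log2 difference of control nuclear replicate 2 from the mean of the other 2 had a rho of -0.52 with exon length, and replicate 1 had 0.48. Without replicate 2 the rho for the nuclear change was 0.53, and without replicate 1 it was 0.71. The part of this library difference in the relation was not tested.

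**Figure D4:**
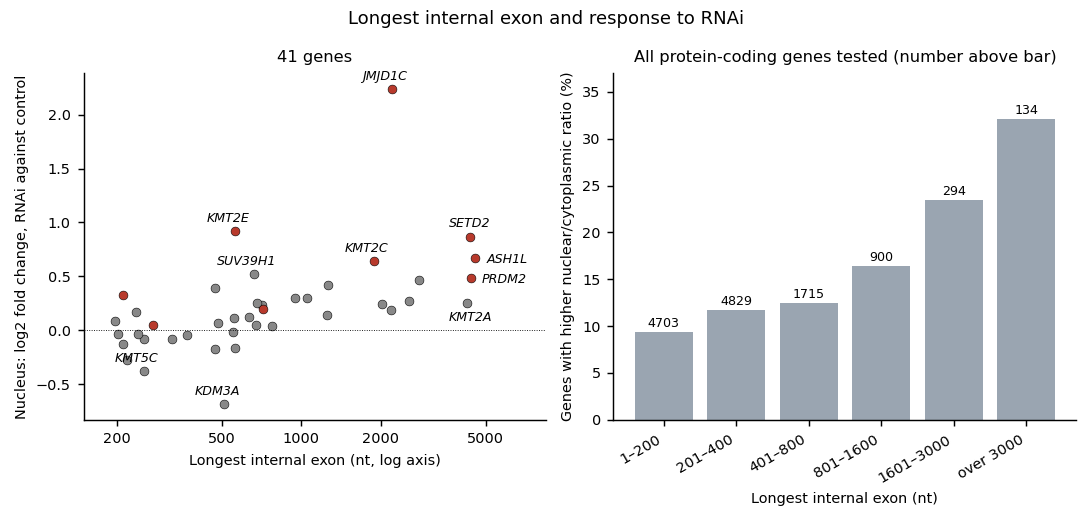
Left, longest internal exon of each of the 41 genes (nucleotides, log axis) against its log2 change in nuclei, with the 9 genes of higher nuclear/cytoplasmic ratio in red. Right, share of all protein-coding genes tested whose nuclear/cytoplasmic ratio was higher after RNAi, by longest internal exon, with the number of genes above each bar. The share runs from 9.40% to 32.1%, and the 4 genes with exons above 3000 nucleotides on the left lie above 0.

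The sequence around the m6A consensus is shown for 4 of the 5 genes with a higher ratio whose longest internal exon held GGACT. The fifth is KMT2E, with 4 GGACT in an exon of 564 nucleotides, and the 1884-nucleotide exon of KMT2C held 0. Each is the first GGACT of the longest internal exon, with GGACT in capitals and 10 bases on either side in lower case, on the mRNA strand, read from GRCh37. All 4 exons are coding throughout. No measurement here says whether any of these adenosines is methylated.
JMJD1C, exon 9 of 25, chr10:64968294-64968318, minus strand: taaaatcaagGGACTtgagggtgag
SETD2, exon 3 of 21, chr3:47165126-47165150, minus strand: gattctgtacGGACTtcttcaagtc
ASH1L, exon 3 of 28, chr1:155451843-155451867, minus strand: taatacataaGGACTtaataaaaaa
PRDM2, exon 4 of 5, chr1:14107805-14107829, plus strand: aggataaaacGGACTtgtcagaaca

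The ASH1L exon held 12 GGACT on the mRNA strand, that of SETD2 4, that of PRDM2 3 and that of JMJD1C 2. Only that strand was searched, and overlapping matches cannot occur for this motif. The longest internal exon held at least 1 in 5 of the 9 genes with a higher ratio (55.6%), in 16 of the other 32 (50.0%) and in 30.2% of all protein-coding genes. Among all protein-coding genes the share holding the motif ran from 16.1% with exons of up to 200 nucleotides to 95.5% above 3000.

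At the level of single transcripts, 172 isoforms of the 41 genes passed the filter. These values are salmon's divisions of reads between overlapping transcripts, and the error of that division is not in the test. For the ratio 1 isoform was called, NSD3-202, the long NSD3 transcript of 10776 nucleotides and 24 exons, against 0.637% of all transcripts higher and 0.389% lower. A count of 1 in 172 is near that background, and with the replicate block 0 were called. NSD3-202 was at 1.26, 1.70 and 1.49 TPM in control nuclei, 1.63, 1.90 and 1.78 in RNAi nuclei, 0.99 in control cytoplasm and 0.24 and 0.28 in RNAi cytoplasm. The cytoplasmic value fell (log2 -1.75 ± 0.22, FDR 0.034) while the nuclear values overlapped, and the ratio changed by 1.93 ± 0.26 (FDR 0.068). The short form NSD3-201, of 3995 nucleotides and 10 exons, was at 3.75 to 3.79 TPM in control nuclei, 4.06 to 4.68 in RNAi nuclei, 5.37 in control cytoplasm and 4.91 and 4.44 in RNAi cytoplasm. Its ratio change was 0.16 ± 0.27 (FDR 0.88), and the difference between the isoforms' changes was not tested.

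For SUV39H1, 1 isoform passed upward and 1 downward in cytoplasm. SUV39H1-202 was at 12.8 TPM in control cytoplasm and 23.0 and 22.0 after RNAi (log2 1.00 ± 0.22, FDR 0.097), whereas SUV39H1-201 was at 0.60 in control cytoplasm and listed at 0 in both RNAi cytoplasms (FDR 0.071). SUV39H1-204, with no coding sequence annotated, held 11.9 TPM in control and 17.5 and 16.5 in RNAi cytoplasm and did not pass. SETD5-212, a retained-intron transcript at 0.12 TPM in control cytoplasm, was likewise listed at 0 in both (FDR 0.092). These were all 4 cytoplasmic isoform calls of the 172, 1 higher and 3 lower, against 1.16% and 1.68% of all transcripts, and with the replicate block 0 were called. In nuclei 0 of the 172 were called after RNAi and 0 of all transcripts (edgeR), with 22 of the 172 at an unadjusted p under 0.05. The share of all transcripts at that p is not given here. For KMT2E the division between isoforms varied among control nuclei. KMT2E-201, which the annotation marks for nonsense-mediated decay, held 2.36, 2.35 and 0.57 TPM in control and 5.80, 5.31 and 5.66 in RNAi nuclei, while the coding KMT2E-202 held 1.56, 0.25 and 2.98 against 1.28, 1.25 and 0.68. With coding transcripts alone, the nuclear change of KMT2E was -0.57 on the log2 scale and did not pass.

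Between compartments, in RNAi cells 51 isoforms were higher in the nucleus and 17 lower, against 28.6% and 15.0% of all transcripts, and in control cells 35 and 18, against 21.0% and 11.0%. Many of these are transcripts annotated as retaining an intron. Of 33 such isoforms tested, 22 were higher in the nucleus than in the cytoplasm of RNAi cells and 1 was lower. In control cells 17 were higher and 2 lower. The share of all retained-intron transcripts called between compartments is not given here, so these counts have no background. They are not a result about these genes. Of the 33 isoforms, 3 are given that were chosen after their values were seen. SETD5-210 was at 4.82 to 6.65 TPM in control nuclei and 8.73 to 9.34 in RNAi nuclei, and at 0.18 to 0.35 in the 3 cytoplasmic libraries. SETDB1-215 was at 4.60 to 6.14 TPM in the 6 nuclei and 0.19 to 0.64 in the cytoplasms. KDM1A-206 was at 2.43 to 3.76 TPM in nuclei and 0.59 to 0.99 in cytoplasms. In all 3 the nuclear libraries lay wholly above the cytoplasmic ones.

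Summed over the 41 genes, retained-intron transcripts took 11.8 to 14.2% of TPM in the 6 nuclear libraries and 5.80 to 6.85% in the 3 cytoplasmic ones. RNAi and control nuclei overlapped in this share. It was not computed over all genes. As shares of estimated counts, which weight long transcripts more, the means were 4.47% in RNAi nuclei and 1.97% in RNAi cytoplasm, and 3.92% in control nuclei and 3.19% in control cytoplasm. By TPM, in EHMT2, the H3K9 dimethyltransferase G9a, the share was 21.9, 23.4 and 21.4% in control nuclei, 30.4, 30.2 and 30.5% in RNAi nuclei, and 1.7, 1.2 and 0.4% in cytoplasms. In SUV39H1 it was 9.3, 19.5 and 21.6% in control nuclei and 4.4, 7.6 and 8.2% in RNAi nuclei. EHMT2 and SUV39H1 were chosen after their values were seen. An exact permutation test of RNAi against control nuclei gave each p = 0.1, or 0.68 adjusted over the 41 genes. That p is the smallest possible and was reached by 6 of the 41. The share was higher in all 6 nuclei than in all 3 cytoplasms for 10 genes, and lower for 2, NSD1 and NSD2. This was not counted over all genes, so it is not a result about the 41. Genes with no retained-intron signal in any library, such as SETD1A, could not count either way. EHMT2 lies in the major histocompatibility complex, whose alternate haplotypes carry copies of it, so its counts are uncertain.

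**Figure D5:**
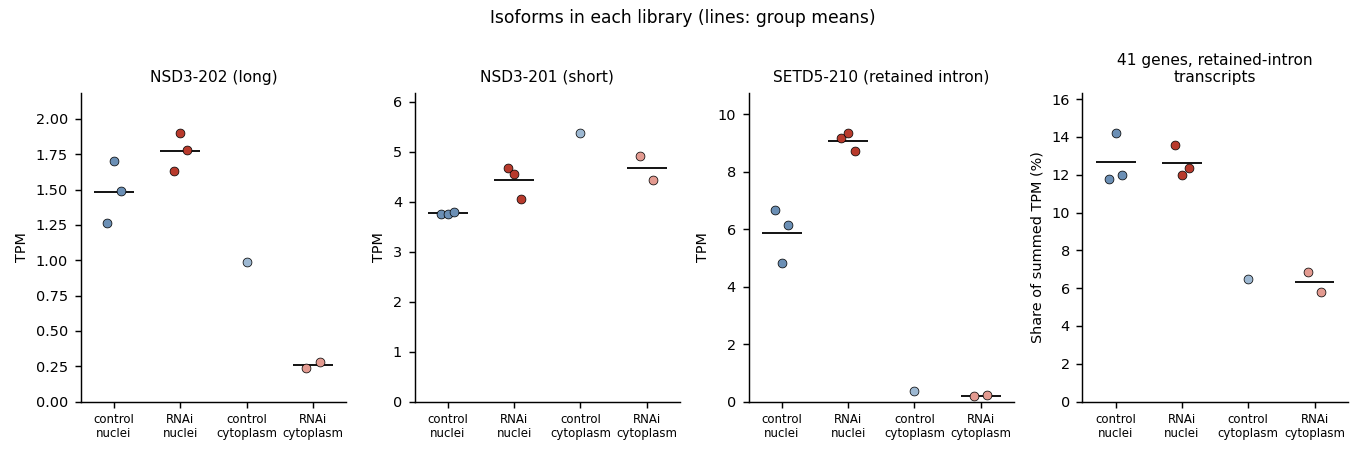
TPM of NSD3-202, NSD3-201 and SETD5-210, and the share of the 41 genes' summed TPM held by retained-intron transcripts (percent), in each library (points) with lines at the means of groups with more than 1 library. NSD3-202 falls from 0.99 to 0.24 and 0.28 TPM in cytoplasm while NSD3-201 stays between 4.44 and 5.37, and the retained-intron share is 11.8 to 14.2% in nuclei against 5.80 to 6.85% in cytoplasms.

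Genes for proteins that work with these enzymes were counted in 5 further lists, where the shares of all genes tested are 10.4% higher and 7.87% lower in ratio and 14.2% lower in cytoplasm. Of 12 H3K9 methylation partners, 6 had a higher ratio and 0 a lower one, with ZNF644 (log2 2.46), a zinc finger partner of EHMT2, and the HUSH complex subunit TASOR (1.64) at the head, followed by the heterochromatin protein CBX3 (1.22). In cytoplasm 8 of these 12 were lower after RNAi and 0 higher, and in nuclei 0 were called. The median ratio change of this list was 0.82, against -0.05 over all genes. Of 10 tested partners of EZH1 and EZH2, the core subunit SUZ12 (2.04) and the accessory subunit MTF2 (1.05) had a higher ratio and 0 a lower one. SUZ12 was at 15.2 CPM in control cytoplasm and 3.89 and 3.17 after RNAi, while its nuclear values overlapped. Among 15 COMPASS partners 2 were higher, BOD1L1 (2.75) and PSIP1 (1.27), and 0 lower. BOD1L1 passed in both compartments and in opposite directions, at 1.04 in nuclei and -1.71 in cytoplasm. Of 9 partners of KDM1A in the CoREST complex, RCOR3 (0.64) was higher and HMG20B (-0.60) lower. Of 19 tested further lysine methylation enzymes, MECOM (1.61) and RIOX2 (0.69) were higher and 0 lower. MECOM, too, passed in both compartments, at 0.61 in nuclei and -0.997 in cytoplasm. The COMPASS, CoREST and further-enzyme counts are near the background shares, and the count of 2 among 10 partners of EZH1 and EZH2 is small. None of these 4 counts is a result about its list. The ratio and cytoplasm counts of the H3K9 partners rest on 1 control cytoplasmic library. That list, like the others, was chosen with earlier results of these data known.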

How the data were processed

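The authors sequenced poly(A) RNA from nuclear and cytoplasmic fractions (Lexogen SENSE kit) and trimmed reads with cutadapt. They quantified transcripts with Salmon against an Ensembl annotation of hg19 (software versions not given in the sources used here). The deposited tables hold, per transcript, estimated counts and TPM (length-scaled abundance) that Salmon made from the authors' reads. Of 215170 transcripts listed, 183122 (85.1%) matched a separate GRCh37 annotation (GENCODE) by identifier, holding 83.07 to 88.31% of counts per library. Transcript lengths are those deposited, while exon numbers and transcript types come from the matched annotation. The sources can differ for a transcript, as for KMT2C-203, with a length of 710 nucleotides and a last exon of 2000. Transcripts were summed to genes. Libraries held 11627403 to 19036141 estimated counts, and the limit that a count of 0 allows, 3 counts, was 0.19 to 0.303 per 1e6 matched counts, for counting error only.

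Estimated counts were rounded and tested with edgeR 4.0.16 (quasi-likelihood, TMM, at least 10 counts in at least 3 samples) in R 4.3.3. All 9 samples entered 1 fit of 4 groups with 5 residual degrees of freedom. Benjamini-Hochberg adjustment ran over all genes tested, and calls needed an FDR under 0.1 and a log2 fold change beyond 0.5. Isoforms were tested likewise over 44726 transcripts. Standard errors were derived from the fold change and its F statistic. The lone control cytoplasmic sample is assumed to vary like the other groups. CPM used TMM library sizes. Alternatives used DESeq2 1.42.0, other scalings, filters, transcript sets, a transcript length offset, a replicate block, and each sample left out.

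The 41 genes and the lists were chosen with earlier results of these data known. Every gene past both thresholds was named, with library values for up to 8 per comparison (all 9 for the ratio), and at most 3 named per partner list. Exon length and the isoforms of KMT2E, SETD5-210, SETDB1-215, KDM1A-206 and SUV39H1-204 and the retained-intron shares of EHMT2 and SUV39H1 were added after the values were seen. KMT2C and EHMT2 counts are uncertain because near-identical copies share reads.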

Additional observations from a re-analysis of the deposited data

Results flagged for a closer look

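The RNAi effect differed between nucleus and cytoplasm, by the edgeR test of that difference itself, for 9 of the 41 genes. The change of the log2 nuclear/cytoplasmic ratio was 4.683 for JMJD1C, 2.086 for SETD2, 1.957 for KMT2E, 1.922 for KMT2C and 1.741 for ASH1L. It was 1.321 for KDM7A, 1.307 for KDM1B, 0.848 for PRDM2 and 0.718 for NSD3. All 9 rest on 1 control cytoplasmic library, and control nuclear replicate 2 was the lowest control nucleus for 8 of them. The part of that library in the changes was not tested beyond leaving it out, which kept all 9 calls.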

How the results depend on the processing

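Of 864 refits of the 56 gene changes called, 769 kept direction and threshold, 94 kept direction only and 1 reversed: KMT2E in nuclei, -0.569 with protein-coding transcripts only, against 0.92. The number of genes with a higher ratio ran from 7 to 12 over the alternatives. Same-numbered nuclei correlated at 0.185, 0.11 and 0.042 in their deviations from group means. All same-numbered pairs were positive, up to 0.197 for RNAi cytoplasm 1 with control nucleus 1. Different-numbered pairs ran from -0.197 to 0.063. Deviations within a group sum to 0, so these pairs are not independent. With 2 RNAi cytoplasms each value has a mirror of opposite sign, as 0.197 and -0.197 are. The signs therefore cannot show whether numbers mark pairs. The labels do not say what a number shares, and the main fit did not take numbers as pairs. With the replicate block 3 genes were lower in ratio, 7 higher in nuclei and 14 lower in control nuclei than cytoplasm, and all 56 calls held. Leaving out single libraries gave 0 to 1 lower in ratio, 1 to 8 higher and 0 to 1 lower in nuclei, 4 to 10 lower in cytoplasm and 5 to 13 lower in control nuclei than cytoplasm. With protein-coding transcripts only, these were 2 higher and 1 lower in nuclei, and 2 (RNAi) and 3 (control) lower in nucleus than cytoplasm. DESeq2 and no filter each gave 1 lower in nuclei, and no filter gave 14 lower in control nuclei than cytoplasm, where an FDR of 0.05 gave 5. Scaling by library size gave 1 higher and 14 lower in cytoplasm and 3 lower in RNAi nuclei than cytoplasm, and the length offset gave 1 higher in cytoplasm. For isoforms, at least 10 counts in every sample left 87 tested, of which 4 were called in ratio, 2 in nuclei, 29 between RNAi compartments and 19 between control compartments, and the replicate block called 0 in ratio and 0 in cytoplasm. The retained-intron share by estimated counts was 1.97% in RNAi cytoplasm, 4.47% in RNAi nuclei, 3.19% in control cytoplasm and 3.92% in control nuclei, and that of control cytoplasm was 6.49% with a TPM minimum. Except for fewer isoforms tested, the cause of these shifts was not tested. Depth limits JMJD1C, KMT5B and SETDB2 most.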
